A study of Mus musculus with 16 samples.

Results

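The collagen genes of the whole mouse embryo at embryonic day (E) 9.5 were taken as all genes whose symbol is Col, a number, a and a number, which gave 44 of the 26411 genes counted. They comprised 11 fibrillar collagens, 8 basement membrane collagens, Col15a1 among them, and 25 other collagens. RNA was sequenced from 16 whole embryos, 4 of each of 4 genotypes, on a mixed FVB x BALB/c background. Kat6a+/+Kat6b+/+ embryos are called wild type. Kat6a-/-Kat6b+/+ embryos, called Kat6a-/- here, lack internal exons of both copies of Kat6a, which encodes a histone lysine acetyltransferase. Kat6a+/+Tg(Kat6b) embryos, called Tg(Kat6b), carry the related gene Kat6b in addition on several inserted copies of a bacterial artificial chromosome, all from 1 founder, with the gene's own flanking sequence. Kat6a-/-Tg(Kat6b) embryos combine both changes. The 4 Kat6a-/-Tg(Kat6b) embryos came from 2 litters that held no other sequenced genotype, so that genotype and litter cannot be told apart in any comparison with them. In whole embryos, fewer cells of a type and less RNA per cell cannot be told apart either.

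Collagens are extracellular proteins of 3 chains wound into a triple helix. Fibrillar collagens of types I, II, III, V and XI assemble into the fibrils of connective tissue and cartilage, type IV collagen forms the sheet of basement membranes, and smaller collagens decorate fibrils, span the cell membrane or form fine filaments. In the early embryo type IV collagen underlies every epithelium and vessel, type II surrounds the notochord and neural tube, and types I and III belong to loose mesenchyme.

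Libraries held between 14407277 and 45665680 counts on genes. Kat6b, read as CPM, the count relative to a library size scaled by TMM, lay between 42.6 and 51.0 in the 8 embryos without the transgene and between 155 and 227 in the 8 with it. Kat6a gave 199 ± 16.5 CPM (SD, n = 4) in wild-type and 203 ± 15.2 CPM (SD, n = 4) in Kat6a-/- embryos, and a count over the whole gene does not check the loss of internal exons. Replicates 2 and 4 of Kat6a-/-Tg(Kat6b), the 2 females, were the closest of all 120 pairs of libraries, with a chi-square per degree of freedom of 1.83 over genes, next to 3.51 for the next closest pair. They are labelled as different litters, 483 and 498, and both were kept as separate embryos, which this value does not show, so that n = 4 for this genotype is in doubt. Counts of calls with the 2 merged are given with the other alternatives. In Tg(Kat6b) replicate 1, genes of over 5000 bases were lower than in the other embryos of its genotype, with a median log2 difference of -0.15, next to -0.04 to 0.07 in the other libraries. Of the cell type markers, those of trophoblast and decidua were at or near 0 in every embryo, at most 0.131 CPM summed.

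Collagen transcripts of wild-type embryos came mostly from a few genes. Levels are compared between genes as RPKM, counts per kilobase of the listed gene length, scaled as CPM. Col3a1, the only chain of fibrillar type III collagen, was highest with 102 ± 6.74 RPKM (SD, n = 4). It was followed by Col4a1 with 87.3 ± 3.72 RPKM, Col2a1 with 86.5 ± 3.56 RPKM and Col18a1 with 80.4 ± 2.53 RPKM (SD, n = 4 each). Col4a1 is a chain of the basement membrane sheet, Col2a1 the chain of cartilage and notochord sheath collagen, and Col18a1 a basement membrane proteoglycan core. Col3a1 did not overlap Col4a1 between embryos, while Col4a1 overlapped Col2a1 and Col2a1 overlapped Col18a1, which stood clear of the next gene. These 4 genes made up 54.1% of the summed RPKM of all 44 collagen genes. Col1a2, Col4a2 and Col26a1 followed with 52.9, 50.4 and 47.0 RPKM, with neighbours among them overlapping, and Col1a1, the other chain of type I collagen, stood clear below them with 28.6 ± 5.05 RPKM (SD, n = 4). Over 10 RPKM were found for 12 genes, between 1 and 10 RPKM for 17, and under 1 RPKM for 15. Col15a1, a basement membrane collagen related to Col18a1, lay at 6.34 ± 0.774 RPKM (SD, n = 4) and overlapped neither neighbour in the order. Among fibrillar collagens Col24a1 was lowest with 0.508 RPKM, and among basement membrane collagens Col4a4 with 0.0293 RPKM. The other collagens ran from 47.0 RPKM for Col26a1 down to 0.00425 RPKM for Col6a5.

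**Figure D1:**
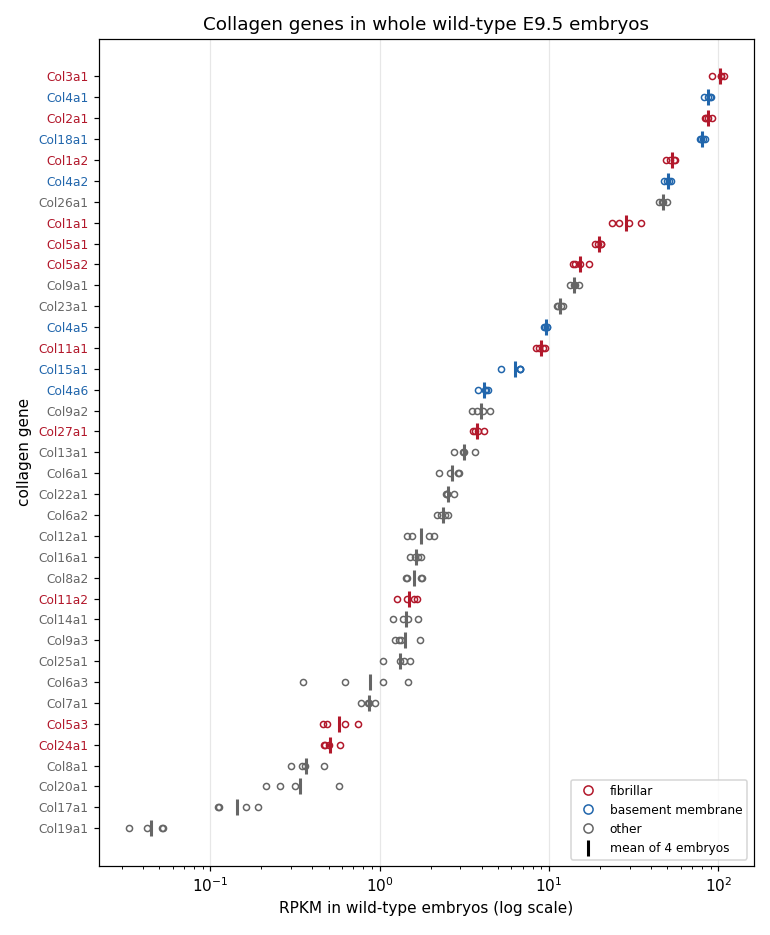
RPKM of the 37 tested collagen genes in the 4 wild-type embryos, on a log scale, ordered by the mean. Open circles are embryos, the vertical mark is the mean of 4, and colour gives the class. Levels run from 0.045 RPKM for Col19a1 to 102 RPKM for Col3a1, with fibrillar and basement membrane collagens at the top.

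Low counts removed 7 collagen genes from the tests. Col4a3, Col4a4, Col6a4, Col6a5, Col6a6, Col10a1 and Col28a1 had at most 14 counts in any embryo. All 11 fibrillar, 6 of 8 basement membrane and 20 of 25 other collagens were tested, 37 in all. Over the 16 embryos the most even of them were Col4a1, Col2a1, Col18a1 and Col4a2, whose highest embryo was between 1.18 and 1.23 times the lowest.

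The type IV chains Col4a1 and Col4a2, which wind together in all basement membranes, passed the threshold in no comparison. Col4a1 had 593, 545, 600 and 578 CPM in wild-type, 575, 574, 589 and 581 CPM in Kat6a-/-, 519, 590, 576 and 562 CPM in Tg(Kat6b) and 620, 559, 574 and 557 CPM in Kat6a-/-Tg(Kat6b) embryos. Col4a2 had 339, 321, 330 and 310 CPM in wild-type, 326, 323, 329 and 335 CPM in Kat6a-/-, 279, 320, 331 and 304 CPM in Tg(Kat6b) and 345, 305, 323 and 296 CPM in Kat6a-/-Tg(Kat6b) embryos. For both genes each genotype overlapped every other. Col18a1, whose cleaved end is endostatin, had 502, 520, 483 and 491 CPM in wild-type, 553, 552, 508 and 529 CPM in Kat6a-/-, 489, 490, 472 and 469 CPM in Tg(Kat6b) and 531, 527, 523 and 533 CPM in Kat6a-/-Tg(Kat6b) embryos. The last group lay above wild-type and Tg(Kat6b) embryos with no overlap, and its log2 fold change against Tg(Kat6b), 0.11 (SE 0.031, edgeR FDR = 0.0639), missed the threshold. Against wild-type embryos it was 0.06, and that of Kat6a-/- embryos was 0.10 (SE 0.028, edgeR FDR = 0.0772). Col2a1 had 482, 502, 494 and 531 CPM in wild-type, 527, 514, 478 and 480 CPM in Kat6a-/-, 516, 503, 560 and 491 CPM in Tg(Kat6b) and 515, 472, 485 and 461 CPM in Kat6a-/-Tg(Kat6b) embryos, with overlap between all genotypes. Against wild type its log2 fold changes were -0.01 in Kat6a-/-, 0.04 in Tg(Kat6b) and -0.04 in Kat6a-/-Tg(Kat6b) embryos, each within 1 SE of 0.

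Loss of KAT6A alone went with lower levels of Col15a1 and Col23a1. Of the 37 collagen genes, 2 (5.41%) passed an edgeR false discovery rate (FDR) of 0.05 in Kat6a-/- vs. wild-type embryos, next to 1.88% of all 15679 genes tested. The fit held 2 surrogate variables, estimated terms for variation between embryos that genotype does not describe. Both genes fell. The median log2 fold change of the 37 genes was -0.03, and that of all genes 0.00325. By class, 1 of 6 basement membrane, 1 of 20 other and 0 of 11 fibrillar collagens passed. In the fibrillar class 2 of 11 genes had an unadjusted p under 0.05, next to 2387 of all 15679 genes. The highest placed, Col5a2, passed with DESeq2.

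Col15a1 (Entrez Gene 12819, GRCm39 chr4:47207582-47313179) had 35.7, 27.6, 36.0 and 35.7 CPM in wild-type embryos. In Kat6a-/- embryos it had 26.4, 26.5, 29.4 and 28.3 CPM. Wild-type replicate 2 lay among the Kat6a-/- embryos, and the other wild-type embryos lay above all of them. The log2 fold change was -0.27 (SE 0.062, edgeR FDR = 0.024). Within litter 801, where both Kat6a-/- embryos were female and the wild-type embryo male, the difference of log2 CPM was -0.43, and within litter 803, which holds wild-type replicate 2 and only males, it was 0.07. Under litter as a block, which uses only such differences, the call was lost, as it was without surrogate variables (edgeR FDR up to 0.73 over all alternatives). It was also lost when wild-type replicate 1 or 3 or Kat6a-/- replicate 1, 2 or 3 was left out (edgeR FDR up to 0.111, log2 fold change -0.33 to -0.24).

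Col23a1 (Entrez Gene 237759, GRCm39 chr11:51180566-51474745), a collagen that spans the cell membrane, had 64.4, 63.5, 68.5 and 66.7 CPM in wild-type embryos. In Kat6a-/- embryos it had 57.8, 56.1, 55.2 and 59.0 CPM. In Tg(Kat6b) embryos it had 59.5, 61.6, 64.7 and 59.3 CPM, and in Kat6a-/-Tg(Kat6b) embryos 63.9, 49.1, 62.6 and 53.5 CPM. Wild-type and Kat6a-/- embryos did not overlap. Their log2 fold change was -0.20 (SE 0.051, edgeR FDR = 0.0498), just inside the threshold. It was -0.18 within litter 801 and -0.15 within litter 803. The call was lost in 11 of 14 alternatives, and on leaving out any embryo other than wild-type, Kat6a-/- or Tg(Kat6b) replicate 1 (edgeR FDR up to 0.23), at a log2 fold change between -0.22 and -0.14.

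Col5a2 (Entrez Gene 12832, GRCm39 chr1:45412554-45542442), a chain of type V collagen, which starts and limits fibrils, came closest among the genes not called. It had 91.7, 101, 94.5 and 114 CPM in wild-type and 132, 146, 100 and 143 CPM in Kat6a-/- embryos. Kat6a-/- replicate 3 lay within the wild-type range and the other 3 above it. The log2 fold change was 0.38 (SE 0.092, edgeR FDR = 0.0638), and DESeq2 gave an FDR of 0.00072.

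The transgene in embryos with intact Kat6a changed no collagen gene past the threshold. In Tg(Kat6b) vs. wild-type embryos 0 of 37 collagen genes passed edgeR's test, next to 0.14% of all genes. Unadjusted p-values were under 0.05 for 8 of the 37, next to 1805 of all 15679 genes. DESeq2 called 1 of the 37 and limma-voom 0. Estimates were below 0 for 27 of 37 genes, with a median log2 fold change of -0.06, next to 0.0016 over all genes. With offsets for the trend on gene length, which stands out in Tg(Kat6b) replicate 1, the median was -0.018. Col5a1 (Entrez Gene 12831, GRCm39 chr2:27776397-27929526), the partner chain of Col5a2, was highest placed. It had 170, 156, 171 and 164 CPM in wild-type and 140, 152, 147 and 146 CPM in Tg(Kat6b) embryos, with no overlap. Its log2 fold change was -0.19 (SE 0.043, edgeR FDR = 0.0651), and -0.08 with the length offsets. Within litter 2597 the difference of log2 CPM was -0.23 and within litter 2598 it was -0.16. The next placed were Col3a1 with a log2 fold change of -0.11 (SE 0.037, edgeR FDR = 0.214) and Col15a1 with -0.17 (SE 0.062, edgeR FDR = 0.247). Leaving out Tg(Kat6b) replicate 2 or Kat6a-/-Tg(Kat6b) replicate 3 gave 1 call instead of 0.

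Each embryo with both changes had more Col1a1, the gene of the main chain of type I collagen, than any other embryo. Between Kat6a-/-Tg(Kat6b) and wild-type embryos, 4 of 37 collagen genes (10.8%) passed, next to 0.67% of all genes. Col4a5, Col3a1 and Col1a2 rose and Col15a1 fell. Against Kat6a-/- embryos 4 of 37 passed, next to 7.14% of all genes, with Col1a2, Col4a5 and Col1a1 higher and Col22a1 lower. Against Tg(Kat6b) embryos 6 of 37 (16.2%) passed, next to 3.41% of all genes. All 6 were higher, and 2.28% of all genes were called higher. They were 5 of the 11 fibrillar collagens, Col1a1, Col1a2, Col3a1, Col5a1 and Col5a2, and Col4a5 of the basement membrane class. Fibrillar medians of the log2 fold change were 0.08, 0.07 and 0.16 in these 3 comparisons, which share the Kat6a-/-Tg(Kat6b) embryos, next to -0.00307, -0.0049 and -0.00778 over all genes.

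Col1a1 (Entrez Gene 12842, GRCm39 chr11:94827050-94843868) had 208, 153, 140 and 176 CPM in wild-type embryos. In Kat6a-/- embryos it had 174, 191, 165 and 185 CPM, and in Tg(Kat6b) embryos 135, 127, 114 and 139 CPM. In Kat6a-/-Tg(Kat6b) embryos it had 322, 248, 469 and 239 CPM. All 4 lay above all 12 others, and the 2 males, replicates 1 and 3, were the highest. The log2 fold change was 1.37 against Tg(Kat6b) (SE 0.201, edgeR FDR = 0.00905) and 0.86 against Kat6a-/- embryos (SE 0.188, edgeR FDR = 0.0245). Against wild-type embryos it was 0.96 (SE 0.192, edgeR FDR = 0.0569), which missed the threshold. The call against Kat6a-/- was lost without Kat6a-/- replicate 1, 3 or 4 or Kat6a-/-Tg(Kat6b) replicate 3 (edgeR FDR up to 0.0572, log2 fold change 0.62 to 0.94). Among the 37 genes, only Col1a1 and Col4a5 had no overlap between Kat6a-/-Tg(Kat6b) embryos and each of the other genotypes. The share of all genes without such overlap was not counted.

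Col1a2 (Entrez Gene 12843, GRCm39 chr6:4504814-4541555), whose product joins that of Col1a1 in the type I helix, had 291, 256, 287 and 272 CPM in wild-type embryos. It had 249, 259, 288 and 277 CPM in Kat6a-/- and 250, 256, 294 and 242 CPM in Tg(Kat6b) embryos. In Kat6a-/-Tg(Kat6b) embryos it had 339, 251, 361 and 252 CPM, so the 2 males lay above all other embryos and the 2 females within the range of the rest. The log2 fold changes were 0.20 against wild-type (SE 0.045, edgeR FDR = 0.0427), 0.23 against Kat6a-/- (SE 0.044, edgeR FDR = 0.00427) and 0.31 against Tg(Kat6b) embryos (SE 0.047, edgeR FDR = 0.00191). Without surrogate variables the fold changes were 0.12, 0.16 and 0.21, with edgeR FDR of 0.73, 0.43 and 0.352. The call against wild type was lost without wild-type replicate 1, 2 or 4, Kat6a-/- replicate 2, Tg(Kat6b) replicate 1 or any Kat6a-/-Tg(Kat6b) embryo (edgeR FDR up to 0.322, log2 fold change 0.14 to 0.23).

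Col3a1 (Entrez Gene 12825, GRCm39 chr1:45350698-45395840) had 599, 513, 576 and 580 CPM in wild-type and 572, 586, 630 and 614 CPM in Kat6a-/- embryos. It had 538, 526, 549 and 509 CPM in Tg(Kat6b) and 702, 546, 702 and 550 CPM in Kat6a-/-Tg(Kat6b) embryos. Again the 2 males were above all other embryos and the 2 females were not. The log2 fold change was 0.20 against wild-type (SE 0.038, edgeR FDR = 0.0129) and 0.32 against Tg(Kat6b) embryos (SE 0.040, edgeR FDR = 0.000232). The call against wild type was lost without wild-type replicate 2 or Kat6a-/-Tg(Kat6b) replicate 1 or 3 (edgeR FDR up to 0.238, log2 fold change 0.12 to 0.23).

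The type V chains followed different orders of embryos. Col5a1 had 151, 158, 170 and 169 CPM in Kat6a-/- and 179, 148, 195 and 148 CPM in Kat6a-/-Tg(Kat6b) embryos, which against Tg(Kat6b) was a log2 fold change of 0.27 (SE 0.046, edgeR FDR = 0.00306). The males were again the 2 highest of the group. Col5a2 had 96.1, 101, 96.4 and 109 CPM in Tg(Kat6b) and 130, 145, 126 and 145 CPM in Kat6a-/-Tg(Kat6b) embryos. These 2 genotypes did not overlap for Col5a2, and here the females were the higher ones. Its log2 fold change was 0.42 against Tg(Kat6b) (SE 0.101, edgeR FDR = 0.0474), a call lost on leaving out 11 of the 16 embryos (edgeR FDR up to 0.213). Those 11 were wild-type replicate 1, Kat6a-/- replicates 1 and 2 and every embryo of the 2 transgenic genotypes, and the log2 fold change stayed between 0.39 and 0.44. Against wild-type embryos it was 0.42 (SE 0.097, edgeR FDR = 0.0824). With gene length offsets the calls of both type V chains against Tg(Kat6b) were lost.

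Of the basement membrane class, Col4a5 (Entrez Gene 12830, GRCm39 chrX:140258354-140472231) had 63.0, 62.0, 61.2 and 63.3 CPM in wild-type and 62.4, 69.3, 66.3 and 65.3 CPM in Kat6a-/- embryos. It had 62.0, 69.3, 60.8 and 63.5 CPM in Tg(Kat6b) and 77.2, 69.9, 81.0 and 70.8 CPM in Kat6a-/-Tg(Kat6b) embryos. All 4 of the last group were above all others, the females by a small margin. The log2 fold change was 0.28 against wild-type (SE 0.052, edgeR FDR = 0.0112), 0.20 against Kat6a-/- (SE 0.051, edgeR FDR = 0.0216) and 0.26 against Tg(Kat6b) embryos (SE 0.054, edgeR FDR = 0.0138). Without Kat6a-/-Tg(Kat6b) replicate 3 the edgeR FDR rose past 0.05 in all 3 comparisons, to at most 0.102. Leaving out Kat6a-/- replicate 1 or Kat6a-/-Tg(Kat6b) replicate 1 also ended the call against Kat6a-/-, and leaving out Tg(Kat6b) replicate 1 that against Tg(Kat6b). Gene length offsets ended the Col4a5 call against Tg(Kat6b) as well. Col15a1 had 26.2, 31.3, 31.2 and 34.1 CPM in Tg(Kat6b) and 28.5, 22.7, 25.3 and 23.9 CPM in Kat6a-/-Tg(Kat6b) embryos. Compared with wild type, the double genotype had a log2 fold change of -0.32 (SE 0.066, edgeR FDR = 0.0234). That call was lost without wild-type replicate 1 or 3 or Kat6a-/-Tg(Kat6b) replicate 2, 3 or 4 (edgeR FDR up to 0.0913, log2 fold change -0.41 to -0.26). Against Kat6a-/- embryos it was -0.04 (SE 0.064, edgeR FDR = 0.74), so Col15a1 was called lower than wild type in both groups without Kat6a, which share their wild-type embryos.

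Of the other class, Col22a1 (Entrez Gene 69700, GRCm39 chr15:71667644-71906095), a fibril-associated collagen of tissue junctions, was alone in passing a comparison with Kat6a-/-Tg(Kat6b) embryos. It had 15.2, 16.7, 15.3 and 15.1 CPM in wild-type, 17.2, 16.7, 17.2 and 19.2 CPM in Kat6a-/-, 15.9, 16.3, 15.9 and 15.02 CPM in Tg(Kat6b) and 16.5, 13.2, 14.6 and 13.6 CPM in Kat6a-/-Tg(Kat6b) embryos. The last group did not overlap the Kat6a-/- embryos. The log2 fold change between them was -0.27 (SE 0.073, edgeR FDR = 0.0263), lost without Kat6a-/- replicate 1, 2 or 4 or Kat6a-/-Tg(Kat6b) replicate 2, 3 or 4 (edgeR FDR up to 0.0865, log2 fold change -0.34 to -0.24).

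The 20 tested genes of the other class, which hold fibril-associated, filament-forming and membrane-spanning collagens, had mostly negative estimates against wild type, and of them only Col23a1 passed, in Kat6a-/- embryos. Against wild type their estimates were below 0 for 14 of 20 in Kat6a-/-, 14 of 20 in Tg(Kat6b) and 15 of 20 in Kat6a-/-Tg(Kat6b) embryos, with median log2 fold changes of -0.07, -0.05 and -0.09. These 3 comparisons share the wild-type embryos. In the last, edgeR called 0 of the 20, with 6 unadjusted p-values under 0.05, next to 1987 of all 15679 genes. The range was from -0.65 for Col20a1 to 0.55 for Col6a3 in Kat6a-/-, and from -0.51 for Col19a1 to 0.35 for Col8a1 in Kat6a-/-Tg(Kat6b) embryos, all of them genes of low level with large errors. The remaining fibrillar genes, Col5a3, Col11a1, Col11a2, Col24a1 and Col27a1, lay between -0.24 and 0.16 in the 5 pairwise comparisons and passed none (edgeR FDR of 0.145 or more).

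**Figure D2:**
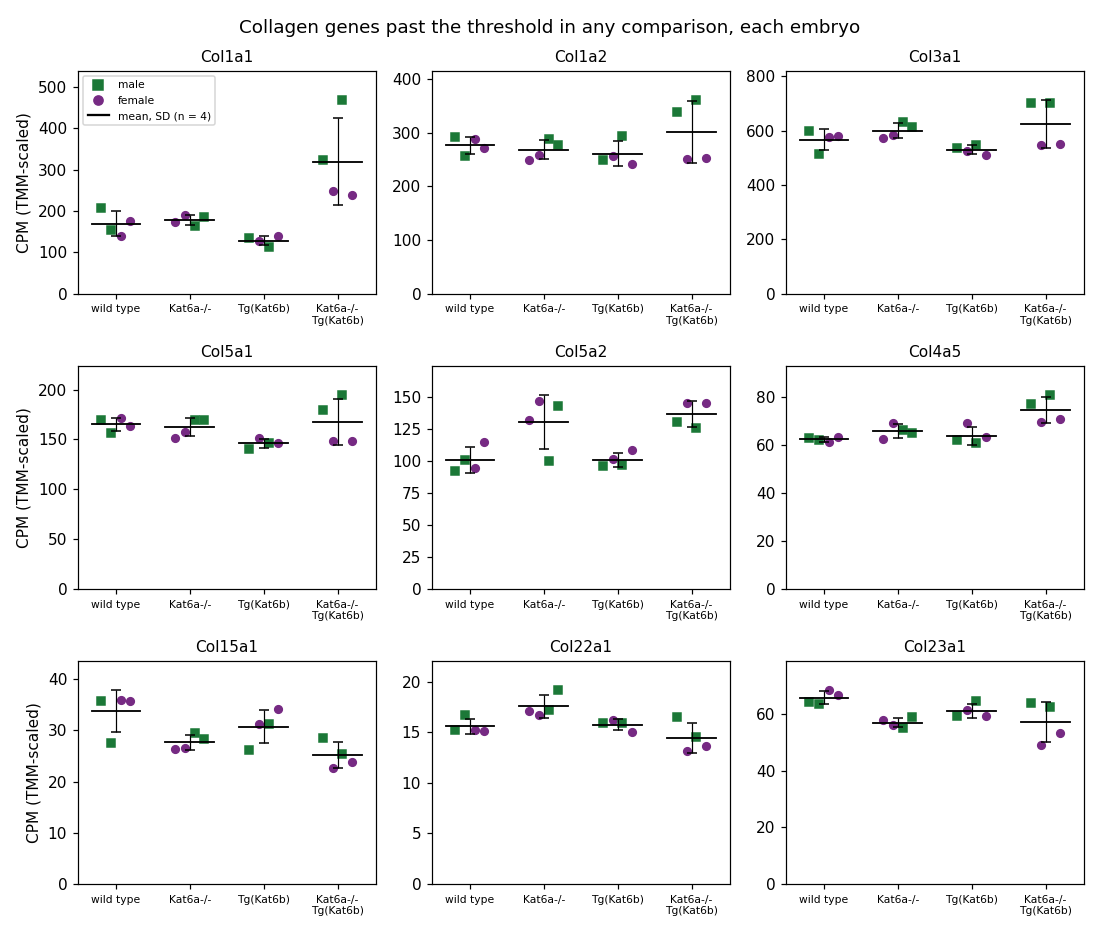
TMM-scaled CPM, on axes that start at 0, of the 9 collagen genes past the threshold in any comparison, by genotype. Squares are male and circles female embryos, and the line and bar are the mean and SD of 4. Col1a1 is higher in all 4 Kat6a-/-Tg(Kat6b) embryos, while Col1a2, Col3a1 and Col5a1 are high in its 2 males only.

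A test of the interaction asked whether the change with KAT6A loss differed with the transgene. Of the 37 collagen genes, 1 passed, Col1a2, next to 0.153% of all genes, with a log2 difference of 0.34 (SE 0.063, edgeR FDR = 0.0207). Col5a1 followed with 0.29 (SE 0.062, edgeR FDR = 0.0602) and Col3a1 with 0.22 (SE 0.054, edgeR FDR = 0.105). The Col1a2 call was lost on leaving out 10 of 16 embryos: every wild-type embryo, Kat6a-/- replicates 3 and 4, Tg(Kat6b) replicate 1 and Kat6a-/-Tg(Kat6b) replicates 1, 2 and 3 (edgeR FDR up to 0.132, log2 difference 0.29 to 0.38).

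Higher Col1a2, Col3a1 and Col5a1 in Kat6a-/-Tg(Kat6b) embryos was found in the 2 males, whereas Col5a2 and Col1a1 were also higher in the females. Without the males, a step prompted by their values, 0 of the collagen genes passed against Tg(Kat6b) embryos, next to 1.26% of all genes, and Col22a1 alone passed against Kat6a-/- embryos, next to 3.12% of all genes. Leaving out the males leaves only replicates 2 and 4 of Kat6a-/-Tg(Kat6b), the close pair of libraries, so that n = 2 is in doubt. Against wild-type embryos 4 collagen genes passed, next to 0.987% of all genes, and all 4 were lower. They were Col15a1 and, not called before, Col23a1 with a log2 fold change of -0.34 (SE 0.064, edgeR FDR = 0.0142), Col25a1 with -0.78 (SE 0.149, edgeR FDR = 0.0149) and Col26a1 with -0.23 (SE 0.051, edgeR FDR = 0.0361). Col1a2 then had log2 fold changes of -0.02 against wild-type and 0.08 against Tg(Kat6b) embryos, and Col3a1 0.02 and 0.13. Col1a1 still had 0.87 against Tg(Kat6b) embryos (edgeR FDR = 0.0505), Col5a2 0.42 (edgeR FDR = 0.203) and Col5a1 0.09 (edgeR FDR = 0.427), and Col15a1 had -0.46 against wild-type embryos (edgeR FDR = 0.0201). Within males alone, Col1a2 was higher in Kat6a-/-Tg(Kat6b) than in wild-type embryos by 0.36 on the log2 scale and Col3a1 by 0.34. Within females alone the differences were -0.15 and -0.08. For Col1a1 they were 1.13 in males and 0.63 in females, with no overlap in either. The wild-type embryos of the 2 sexes came from different litters, so these differences do not part sex from litter. The calls of Col1a2, Col3a1 and Col5a1 were also lost without surrogate variables, with only 1, and with sex as a covariate. In the main fit the first surrogate variable followed sex, from -0.278 to -0.218 in the males and from 0.18 to 0.297 in the females. The fit with 1 surrogate variable and the fit with sex may therefore not be separate checks. The second surrogate variable was -0.41 and -0.33 in the female and 0.02 and 0.03 in the male Kat6a-/-Tg(Kat6b) embryos, and it was lowest, -0.48, in wild-type replicate 2.

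The difference between the sexes was tested in a fit with a level for each genotype and sex, also added after the values were seen. The change in Kat6a-/-Tg(Kat6b) vs. wild-type males minus that in females passed for 5 of 37 collagen genes (13.5%), next to 1.47% of all genes. It was higher in males for Col1a2 with a log2 difference of 0.51 (SE 0.0998, edgeR FDR = 0.025), Col3a1 with 0.41 (SE 0.077, edgeR FDR = 0.0147) and Col5a1 with 0.37 (SE 0.076, edgeR FDR = 0.025). Col23a1 had 0.38 (SE 0.091, edgeR FDR = 0.0449), and Col4a6 -5.42 (SE 0.367, edgeR FDR = 1.54e-05). Each cell of this fit holds 2 embryos, and both Kat6a-/-Tg(Kat6b) males came from litter 483. The females of that genotype are replicates 2 and 4, the close pair of libraries whose separateness is in doubt. The wild-type males came from litters 801 and 803 and the wild-type females from litters 2597 and 2598. Sex and litter thus cannot be told apart among the wild-type embryos of this contrast. Summed markers of mesenchyme (Twist1, Prrx1 and Pdgfra) were 399 to 505 CPM in wild-type and 398 to 448 CPM in Kat6a-/-Tg(Kat6b) embryos, where the 2 males had 441 and 448 CPM and the 2 females 406 and 398 CPM. Sclerotome markers (Pax1, Pax9, Nkx3-2 and Sox9) were 123 to 143 CPM in wild-type, 125 to 158 CPM in Tg(Kat6b), 104 to 115 CPM in Kat6a-/- and 99.4 to 122 CPM in Kat6a-/-Tg(Kat6b) embryos, where the males had 122 and 118 CPM and the females 102 and 99.4 CPM. Within Kat6a-/-Tg(Kat6b) embryos both sums were thus higher in the 2 males. Over all embryos wild-type replicate 3 had the highest mesenchyme sum, 505 CPM, with Col1a2 at 287 CPM. Tg(Kat6b) replicate 3 had the highest sclerotome sum, 158 CPM, with Col3a1 at 549 CPM. All 3 and all 4 of these markers were above 1 CPM in every embryo, and their part in the collagen levels was not tested. Markers of visceral endoderm and yolk sac summed to 10.0 to 18.0 CPM in Kat6a-/- and 41.1 to 53.4 CPM in Kat6a-/-Tg(Kat6b) embryos, and to 15.4 to 56.1 and 5.36 to 50.02 CPM in wild-type and Tg(Kat6b) embryos. Those of parietal endoderm, which include Sparc and Lama1, lay between 347 and 436 CPM, of endothelium between 274 and 332 CPM, of notochord between 53.0 and 71.4 CPM, of surface ectoderm between 18.3 and 30.0 CPM and of macrophages between 2.32 and 14.9 CPM, and their part was not tested either.

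The X-linked type IV gene Col4a6 (Entrez Gene 94216, GRCm39 chrX:139948399-140257072), named here after its values were seen, was almost absent from the 2 Kat6a-/-Tg(Kat6b) males. It had 29.0, 27.8, 25.2 and 28.2 CPM in wild-type and 19.4, 10.7, 26.4 and 30.9 CPM in Kat6a-/- embryos. It had 23.9, 28.6, 22.7 and 27.0 CPM in Tg(Kat6b) and 0.764, 32.9, 0.863 and 31.7 CPM in Kat6a-/-Tg(Kat6b) embryos. The 2 males had 24 and 14 counts, and the 2 females, 1 of them from the males' litter, were the highest embryos of all. In Kat6a-/- embryos the 2 females of litter 801 were the lowest of the remaining embryos. Because of this spread Col4a6 passed no comparison of genotypes, and with both changes against wild type its log2 fold change was -1.42 (SE 0.858, edgeR FDR = 0.544). Over all 15679 genes, only Col4a6 and the claudin family gene Cldn34c1 were in both males lower than the lowest other embryo by a fold of more than 3, with counts in the males taken as at least 3. Cldn34c2, of the same family, had 0 counts in both males and 2 to 22 in the other embryos, too few to meet this rule. Col4a5 and Col4a6 lie head to head, with 1282 bases between their starts in GENCODE. Col4a5 was the highest of all embryos in the same 2 males. The ratio of Col4a5 to Col4a6 RPKM was 2.32 ± 0.112 (SD, n = 4) in wild-type embryos, 103 and 95.9 in these males and 2.17 and 2.28 in the females.

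**Figure D3:**
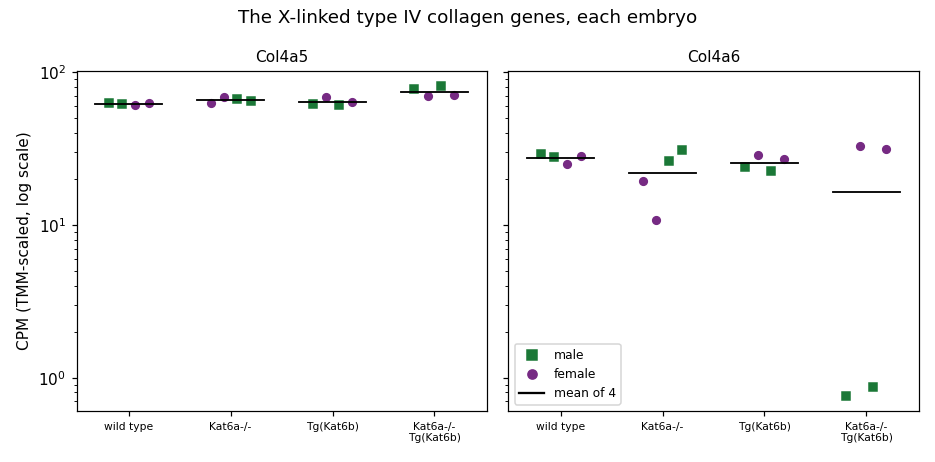
TMM-scaled CPM, on a log axis, of the neighbouring X-linked genes Col4a5 and Col4a6 in each embryo, by genotype. Squares are male and circles female embryos, and lines are means of 4. For Col4a6 the 2 male Kat6a-/-Tg(Kat6b) embryos sit at 0.764 and 0.863 CPM and all other embryos at 10.7 CPM or more, while for Col4a5 the same males are the 2 highest.

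Chains that share a helix were compared as ratios of RPKM, 7 pairs of chains in 5 comparisons, by two-sided exact permutation tests over embryos. The smallest p that 4 embryos against 4 allow is 0.0286, so over 35 tests a shift in only a few ratios could not pass. Adjusted over the 35 tests the smallest p was 0.167, and that no ratio passed therefore says little about single ratios. The ratio of Col1a1 to Col1a2 was 0.539 ± 0.085 in wild-type, 0.59 ± 0.0629 in Kat6a-/-, 0.439 ± 0.0718 in Tg(Kat6b) and 0.922 ± 0.149 in the double genotype (SD, n = 4 each). The last group did not overlap any other (exact permutation p = 0.0286 for each of the 3 comparisons, adjusted p = 0.167), and was above the other genotypes in both sexes. The ratio of Col6a1 to Col6a2, chains of type VI filaments, was 1.13 ± 0.0751 in wild-type, 1.42 ± 0.14 in Kat6a-/-, 1.09 ± 0.0586 in Tg(Kat6b) and 1.33 ± 0.0545 in embryos with both changes (SD, n = 4 each). Both groups without Kat6a lay above wild type with no overlap (exact permutation p = 0.0286, adjusted p = 0.167 each). Col4a1 to Col4a2, whose starts lie 355 bases apart on opposite strands, stayed between 1.72 and 1.77 in the means of all 4 genotypes.

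For Col1a2, Col3a1, Col5a1, Col4a5, its neighbour Col4a6 and Col15a1, the bases ahead of a start annotated by RefSeq are shown. They come from RefSeq promoter windows on GRCm38.p6, an older build than that of the counts. Each window held 250 bases before and 50 after a gene's start. Bases from the first annotated transcript start found in the window onward were left out. Exons that begin ahead of a window were not looked for. GENCODE on GRCm39 starts Col1a2 at 4504814 and Col15a1 at 47207582, and positions were not converted between builds. Bases shown can therefore lie within longer transcripts, which was not tested. Of the 44 collagen genes, 35 had a window, 38 windows in all. Capitals mark a CCAAT box (CCAAT), a GC box (GGGCGG) or a TATA box (TATAAA) on either strand.
Col1a2, chr6:4505368-4505492, plus strand: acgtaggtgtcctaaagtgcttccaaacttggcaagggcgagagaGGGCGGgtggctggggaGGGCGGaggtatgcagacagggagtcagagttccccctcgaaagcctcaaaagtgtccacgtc
Col3a1, chr1:45311288-45311537, plus strand: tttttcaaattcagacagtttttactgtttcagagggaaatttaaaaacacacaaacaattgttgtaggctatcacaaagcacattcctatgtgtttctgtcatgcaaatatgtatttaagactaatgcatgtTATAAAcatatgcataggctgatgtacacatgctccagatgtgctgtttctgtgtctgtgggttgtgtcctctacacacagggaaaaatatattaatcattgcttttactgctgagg
Col5a1, chr2:27886175-27886384, plus strand: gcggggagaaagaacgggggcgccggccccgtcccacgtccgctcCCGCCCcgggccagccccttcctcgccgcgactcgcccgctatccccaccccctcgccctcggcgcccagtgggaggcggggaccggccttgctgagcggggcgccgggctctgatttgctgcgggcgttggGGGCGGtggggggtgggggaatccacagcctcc
Col4a5, chrX:141475169-141475357, plus strand: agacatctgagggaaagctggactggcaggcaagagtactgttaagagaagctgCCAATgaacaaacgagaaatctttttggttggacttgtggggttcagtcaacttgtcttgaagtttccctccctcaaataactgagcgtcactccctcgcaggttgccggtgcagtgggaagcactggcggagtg
Col4a6, chrX:141474077-141474326, minus strand: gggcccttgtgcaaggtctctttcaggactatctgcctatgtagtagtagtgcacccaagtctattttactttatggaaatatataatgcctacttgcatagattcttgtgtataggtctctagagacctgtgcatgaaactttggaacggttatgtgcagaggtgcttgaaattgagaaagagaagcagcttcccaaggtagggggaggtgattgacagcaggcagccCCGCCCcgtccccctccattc
Col15a1, chr4:47207762-47208011, plus strand: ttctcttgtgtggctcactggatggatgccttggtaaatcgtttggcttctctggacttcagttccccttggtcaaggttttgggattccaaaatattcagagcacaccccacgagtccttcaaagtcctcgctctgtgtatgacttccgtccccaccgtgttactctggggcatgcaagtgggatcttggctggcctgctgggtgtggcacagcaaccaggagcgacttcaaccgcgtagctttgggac

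Over the 38 full windows of collagen genes the GC box was in 60.5% and in 35.9% of all 32544 windows of this length, and no test was made of the difference. The CCAAT box was in 34.2% of collagen and 37.4% of all windows, and the TATA box in 13.2% and 13.6%. The windows of Col1a2 and Col5a1 each show 2 GC boxes, that of Col4a6 shows 1, and that of Col3a1 shows a TATA box only. Of the 3 fibrillar genes shown, Col1a2 and Col5a1 thus held a GC box in the bases shown and Col3a1 did not. Col1a1, Col5a2 and Col22a1 were not matched to a window.

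Genes that act on collagen were counted from lists. In Kat6a-/- vs. wild-type embryos 1 of 35 genes of collagen modification and processing passed (2.86%, next to 1.88% of all genes), P3h1, a prolyl 3-hydroxylase, with a log2 fold change of -0.21 (SE 0.047, edgeR FDR = 0.0233). In Kat6a-/-Tg(Kat6b) vs. Kat6a-/- embryos 4 of 35 passed (11.4%, next to 7.14% of all genes), all higher. They were Sparc, a collagen-binding matrix protein, with 0.20 (SE 0.046, edgeR FDR = 0.0131), Adamts2, which trims the amino end of procollagen, with 0.73 (SE 0.173, edgeR FDR = 0.0142), Creb3l1, an activator of collagen transcription, with 0.52 (SE 0.150, edgeR FDR = 0.0375), and Pcolce2, an enhancer of procollagen cleavage, with 0.45 (SE 0.129, edgeR FDR = 0.0392). Against Tg(Kat6b) embryos 1 of 35 passed (2.86%, next to 3.41% of all genes), P3h3, with -0.32 (SE 0.063, edgeR FDR = 0.0105). Of 15 partners of collagen in the basement membrane, 4 (26.7%) were higher in Kat6a-/-Tg(Kat6b) than in Tg(Kat6b) embryos, next to 2.28% of all genes called higher, the laminin chains Lamc1 with 0.28 (SE 0.054, edgeR FDR = 0.0107), Lamb1 with 0.19 (SE 0.044, edgeR FDR = 0.026) and Lama5 with 0.37 (SE 0.090, edgeR FDR = 0.0467), and nidogen Nid2 with 0.18 (SE 0.044, edgeR FDR = 0.0315). The median of the 15 was 0.25, next to -0.00778 over all genes. Measured from the wild-type level, the same 15 had a median of 0.07 with both changes, where 10 estimates were higher and 5 lower. With the transgene alone their median was -0.14, and 14 of the 15 estimates were lower. Neither of these 2 comparisons called any of the 15. The part of gene length in these values was not tested. Nid2 alone of the 15 (6.67%, next to 7.14% of all genes) was also higher against Kat6a-/- embryos, by 0.22 (SE 0.042, edgeR FDR = 0.00375). Of 8 tested receptors, 1 (12.5%, next to 3.41% of all genes) passed against Tg(Kat6b) embryos, Ddr2, a receptor kinase for fibrillar collagen, with a fitted log2 fold change of 0.21 (SE 0.058, edgeR FDR = 0.0446). The group means lay close together, with 66.2 ± 11.8 CPM in Kat6a-/-Tg(Kat6b) and 66.5 ± 6.19 CPM in Tg(Kat6b) embryos (SD, n = 4 each), and without surrogate variables the value was -0.01 (edgeR FDR = 0.977). Ddr2 had 58.0, 67.6, 67.7 and 72.8 CPM in Tg(Kat6b) and 76.1, 55.9, 76.8 and 56.0 CPM in Kat6a-/-Tg(Kat6b) embryos, with the males above and the females below all Tg(Kat6b) embryos. Of 7 transcription factors of cartilage, bone and tendon, edgeR called 0 in any comparison, with at most 2 unadjusted p-values under 0.05. These 2 were in Kat6a-/- vs. wild-type embryos, next to 2387 of all 15679 genes. Of the 12 calls named from these lists, 9 were also made without surrogate variables, and those of P3h1, Sparc and Ddr2 were not.

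**Figure D4:**
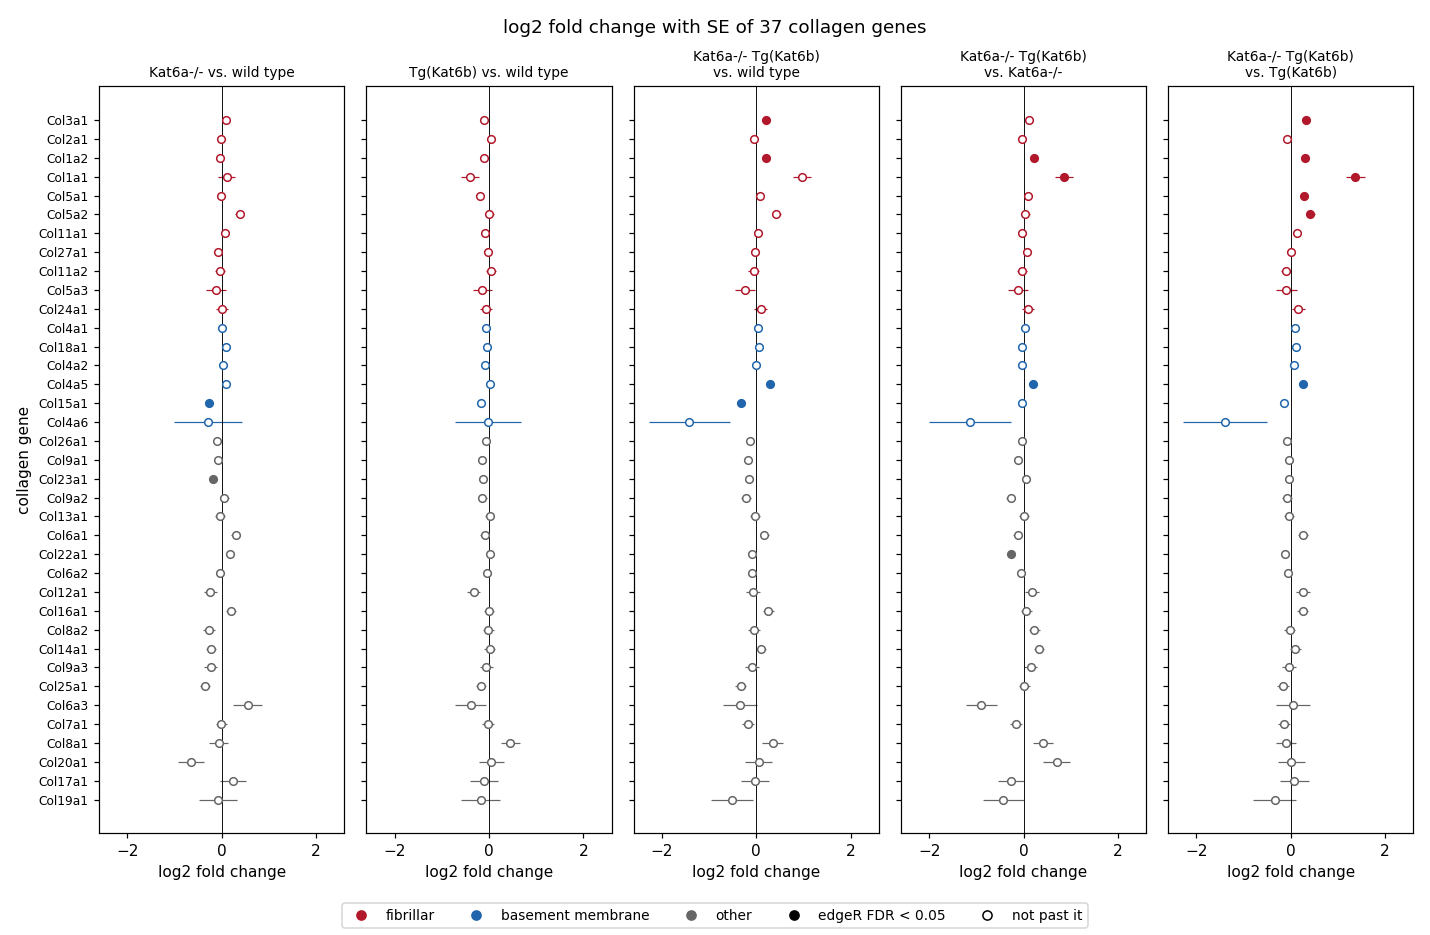
log2 fold change of the 37 tested collagen genes in 5 comparisons, with the SE as bars, grouped by class and ordered within a class by the wild-type RPKM. Filled points passed an edgeR FDR of 0.05. The fibrillar genes have 5 filled points right of 0 against Tg(Kat6b) embryos, and Col15a1 is filled left of 0 in Kat6a-/- and in Kat6a-/-Tg(Kat6b) against wild type.

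Summed by class, fibrillar transcripts gave 320 ± 13.3 RPKM in wild-type, 330 ± 4.55 RPKM in Kat6a-/-, 303 ± 11.1 RPKM in Tg(Kat6b) and 363 ± 48.3 RPKM with both changes (SD, n = 4 each). The 2 males of the last group had 391 and 416 RPKM and the females 323 and 320 RPKM. Basement membrane transcripts were even, with 238 ± 4.21, 243 ± 1.38, 229 ± 8.52 and 240 ± 6.54 RPKM in the same order (SD, n = 4 each). Other collagens gave 99.4 ± 3.81, 94.1 ± 3.96, 95.0 ± 2.32 and 88.8 ± 7.99 RPKM (SD, n = 4 each). Reads were counted without a stated use of strand. Exons on the opposite strand cover 12.7% of the exon bases of Col18a1, 10.3% of Col1a2, 4.94% of Col4a1, 4.93% of Col4a2, 4.76% of Col2a1, 2.43% of Col5a1, 1.93% of Col15a1, 1.08% of Col3a1 and 0.168% of Col22a1, and none of Col1a1, Col4a5, Col4a6, Col5a2 or Col23a1, and reads from them cannot be told apart.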

How the data were processed

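RNA from 16 whole E9.5 embryos was sequenced with an unstranded kit. The authors aligned the reads to mm39 with Rsubread and deposited raw counts per gene from featureCounts. The version, the gene annotation and the strand setting are not given in the sources used here. Genotypes, litters and sexes were taken from the labels.

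Counts were filtered with filterByExpr (minimum count 10, minimum total 15), scaled by TMM and tested with edgeR 4.0.16 (robust quasi-likelihood) and 2 surrogate variables from sva 3.50.0 (20 permutations) over all 16 embryos, in R 4.3.3. The study's methods name edgeR and limma, TMM and surrogate variables, while the filter, the quasi-likelihood test and the number of surrogate variables were chosen here. Calls were made at a Benjamini-Hochberg FDR under 0.05 over 15679 genes. CPM and RPKM used TMM-scaled library sizes and the listed gene lengths. DESeq2 1.42.0 and limma 3.58.1 (voom), other covariates and filters, litter or replicate number as a block, and leaving out each embryo were alternatives. On simulated counts of Kat6a-/- and wild-type embryos (15511 genes), 195 of 200 changed genes and 5 others were called. The changes set were 1 or 2 on the log2 scale in either direction, in genes with enough counts. They were larger than most collagen changes called here. Smaller changes and effects of litter or sex were not simulated. Libraries held 14407277 to 45665680 counts. Nothing in the labels says that embryos were pooled, so each is taken as 1 animal.

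Collagen genes and gene lists were chosen with earlier results of these data known. Genes named with every embryo's level were those called in a pairwise comparison or the interaction and Col15a1, Col1a1, Col1a2, Col3a1, Col2a1, Col4a1, Col4a2 and Col18a1, and the 3 genes with the smallest p of each comparison were named with fold changes. The contrast between sexes, the merging of a pair of close libraries, leaving out both Kat6a-/-Tg(Kat6b) males, values within sexes, and naming Col4a6, Col6a3, Postn, Cldn34c1 and Cldn34c2 were chosen after values were seen. Positions come from GENCODE on GRCm39, and overlap with other genes' exons from the same annotation.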

Additional observations from a re-analysis of the deposited data

Results flagged for a closer look

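Wild-type replicate 2 stood apart from the other 3 wild-type embryos for 2 collagen genes. Col15a1 was lowest there with 27.6 CPM, the next embryo being at 35.7 CPM, a gap of 0.965 of the group's range. Col22a1 was highest there with 16.7 CPM, the next being at 15.3 CPM, a gap of 0.897 of the range. Over 60 groups of 4 embryos for 15 genes, these were the 2 that passed Dixon's 95% value, and chance gives about 1 in 20.

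The change of Col1a2 with KAT6A loss differed with the transgene, by 0.34 on the log2 scale in the interaction. The change between Kat6a-/-Tg(Kat6b) and wild-type embryos differed between males and females for 5 genes. The log2 difference, males minus females, was -5.42 for Col4a6, 0.41 for Col3a1, 0.51 for Col1a2, 0.37 for Col5a1 and 0.38 for Col23a1. Both Kat6a-/-Tg(Kat6b) males came from litter 483, as did 1 of the females. Wild-type males and females came from different litters, so sex and litter cannot be told apart there, and the part of litter was not tested.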

How the results depend on the processing

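The 4 genotypes share replicate numbers, but same-numbered embryos did not deviate together (correlations from -0.47 to 0.47, 12 of 24 over 0.1), so the replicate number as a block pairs nothing. With this block 2 collagen genes were called in Kat6a-/- vs. wild-type, 0 in Tg(Kat6b) vs. wild-type, 4, 3 and 6 in the double genotype against wild-type, Kat6a-/- and Tg(Kat6b), and 2 instead of 1 in the interaction.

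For Kat6a-/- vs. wild type, the 2 calls became 0 without surrogate variables, with 1 of them, with sex as covariate, with only the 2 genotypes and sex, with litter as a block or at an FDR of 0.01. They became 1 with DESeq2's size factors, limma-voom, no filter, 10 counts in every embryo, the 2 close libraries merged or both double-genotype males left out, 4 with DESeq2, and 0 to 2 when 1 embryo was left out. For Tg(Kat6b) vs. wild type, 0 became 1 with DESeq2 and 0 to 1 without 1 embryo. For the double genotype against wild type, 4 became 2 without surrogate variables, with only the 2 genotypes or with the 2 libraries merged, 0 at an FDR of 0.01, and 0 to 5 without 1 embryo. Without both males Col1a2 turned to a log2 fold change of -0.021. Against Kat6a-/-, 4 became 2 without surrogate variables, with 1 or with sex, 1 at an FDR of 0.01 or without both males, and 1 to 5 without 1 embryo. Against Tg(Kat6b), 6 became 3 with gene length offsets, which lost Col5a1, Col4a5 and Col5a2. The 6 became 2 with only the 2 genotypes, 0 without both males, and 4 to 7 without 1 embryo. The interaction's 1 call became 0 at an FDR of 0.01, without or with 1 surrogate variable, with sex, with no filter, with 10 counts in every embryo, with the libraries merged or without both males, 4 with DESeq2, and 0 to 3 without 1 embryo.

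Over all named genes and settings 514 values stayed the same, 152 lost the call, 11 gained it and 1 turned sign. Fold changes that stayed the same kept their direction and side of the threshold. The 514 also hold wild-type RPKM levels of Col15a1, Col1a1, Col1a2, Col3a1, Col2a1, Col4a1, Col4a2 and Col18a1. With total counts as library size these stayed within 1 SD. The causes were not tested. Counts of collagen calls by setting stand here, and above for Tg(Kat6b) vs. wild type, without the share of all genes called in that setting. Scaling by DESeq2's size factors moved the median of all genes by under 0.01. The 7 untested collagen genes had at most 14 counts in any embryo.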

Other observations

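Col6a3, the long chain of type VI collagen, named after its values were seen, varied with a coefficient of variation of 45.2% over the 16 embryos. It had 11.4, 3.81, 6.79 and 15.99 CPM in wild-type and 10.7, 12.1, 11.6 and 15.6 CPM in Kat6a-/- embryos. It had 5.37, 8.78, 10.6 and 5.20 CPM in Tg(Kat6b) and 8.78, 4.22, 6.97 and 3.32 CPM in Kat6a-/-Tg(Kat6b) embryos, so that the Kat6a-/- and Kat6a-/-Tg(Kat6b) embryos did not overlap.

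Postn encodes periostin, a matrix protein that binds type I collagen. Among tested genes with over 1 CPM in the highest other embryo, only Postn was over 1.3 times that embryo in both Kat6a-/-Tg(Kat6b) males. Col1a1, with 322 CPM in the lower male and 248 CPM in the highest other embryo, fell just short of this rule. Postn had 78.5 and 122 CPM in these males and 51.8 and 54.0 CPM in the females of that genotype, and between 16.4 and 41.5 CPM in the other genotypes. The same males were the highest for Col1a1, Col1a2, Col3a1 and Col5a1.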
